A study of Mus musculus with 6 samples.

Results

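The cornified envelope genes of the epidermal differentiation complex were followed in keratinocytes of mouse dorsal skin. They were chosen by symbol: every gene that begins with Sprr or Lce, and Lor, Flg, Flg2, Ivl, Rptn, Hrnr, Tchh, Tchhl1 and Crnn. This rule gave 45 of the 31053 genes in the files, and no measured value entered it. All 45 lie on chromosome 3 (GRCm38), between positions 92080271 and 93471980, a stretch of 1.39 Mb.

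The data are droplet single-cell RNA sequencing libraries of dorsal skin from female C57BL/6J mice of 8 to 10 weeks, in 3 groups of 2 libraries. The Sham group was untreated. The IMQ group received 62.5 mg of a 5% imiquimod cream each day for 4 days on the shaved back. The IMQ+SHP099 group received the same cream and, by gavage, 10 mg/kg of SHP099 each day for 4 days. Imiquimod is a TLR7 agonist whose cream raises a psoriasis-like inflammation in mouse skin, and SHP099 is an allosteric inhibitor of the phosphatase SHP2, so the IMQ libraries serve as controls of the inhibitor. Each library pools the skin of several mice, and all p-values measure the spread between such pools (n = 2 per group).

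The cornified envelope is the protein shell that replaces the plasma membrane of a keratinocyte as it dies at the skin surface. Transglutaminases crosslink involucrin, loricrin, small proline-rich (SPRR) proteins and late cornified envelope (LCE) proteins into it, while filaggrin packs the keratin filaments beneath. Loricrin and filaggrin are made in the granular layer of resting epidermis, and many SPRR genes are known for their induction in stressed, wounded or psoriatic skin.

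Keratinocytes were gated by keratins, with no member gene in any gate. Sham gave 5728 and 1300 such cells, IMQ gave 1262 and 777, and IMQ+SHP099 gave 5413 and 412, with medians of 10203 to 35299.5 UMIs (counted molecules) per cell. The basal gate took cells in which Krt1 and Krt10 made up less than 0.2 of the keratin UMIs, and the granular gate took cells at or above that share with late genes such as Cdsn, Klk7, Asprv1 and Cnfn. The granular gate held 456 and 67 cells in Sham, 160 and 67 in IMQ, with 390 and 51 in IMQ+SHP099. Cells at or above that share with fewer late genes fell into a transitional gate (share under 0.8) or a suprabasal gate (0.8 or more). The suprabasal gate held 1036 and 313 cells in Sham but 25 and 3 in IMQ, with 27 and 7 in IMQ+SHP099, too few to test. The transitional gate held 551 and 116 in Sham, 170 and 99 in IMQ, with 422 and 32 in IMQ+SHP099, and was not tested for genes. The Sham libraries stood apart from each other, with keratinocytes at 66.7% and 15.8% of the kept cells, so results that turn on either are given without it. Libraries shared 12 to 30 cell barcodes per pair. Gates are ranges of a score and not cell types, and 8 to 242 cells per library lay near a limit.

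The share of cells in each layer is a description here, since the exact test used for it has few arrangements of so few libraries. Suprabasal cells made up 18.1% and 24.1% of gated keratinocytes in Sham, against 1.98% and 0.386% in IMQ, a difference of -19.9 percentage points. With 2 libraries against 2 an exact two-sided permutation test cannot go below p = 0.33, which is the value it gave. The transitional gate held 9.62% and 8.92% in Sham and 13.5% and 12.7% in IMQ. An upper follicle gate, drawn by Krt79, held 1.75% and 8.08% in Sham and 17.0% and 22.7% in IMQ. The upper follicle gate took cells at any share of Krt1 and Krt10, so it does not lie between the basal and granular gates. Cells of the transitional gate were still counted in IMQ, where the suprabasal share was lower, and the cause was not tested. The granular gate kept the early keratin Krt14 in treated skin, at 14358 and 14510 CPM (UMIs of a gene per 1000000 UMIs of the gate) in IMQ against 855 and 44.9 in Sham. The gate gene Cdsn (corneodesmosin, an adhesive protein of the upper layers) stood at 4.74 and 5.86 CPM in IMQ against 412 and 238 in Sham. Levels below are therefore levels of a gate: fewer mature cells inside it and less RNA per cell cannot be told apart.

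Promoter sequences of 6 members are shown because the members fall into families that moved in opposite directions, and the families also differ in the letters near their starts. Each is the 250 bases before the gene start in RefSeq, build GRCm38.p6, read 5′ to 3′ on the gene's strand. Capitals mark TGANTCA, the core of AP-1 sites, and in Flg also TTGCNNAA, the letters of C/EBP sites. The windows are chr3:92083143-92083392 on the minus strand for Lor, chr3:93273296-93273545 on the plus strand for Flg, chr3:92338890-92339139 on the plus strand for Sprr2d, chr3:92385435-92385684 on the plus strand for Sprr2h, chr3:92438780-92439029 on the minus strand for Sprr1b and chr3:92944236-92944485 on the plus strand for Lce3c.
Lor: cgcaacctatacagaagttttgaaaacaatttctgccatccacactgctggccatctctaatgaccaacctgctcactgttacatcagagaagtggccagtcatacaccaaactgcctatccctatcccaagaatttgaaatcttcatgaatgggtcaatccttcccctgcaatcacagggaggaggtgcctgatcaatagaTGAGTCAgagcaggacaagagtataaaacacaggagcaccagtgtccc
Flg: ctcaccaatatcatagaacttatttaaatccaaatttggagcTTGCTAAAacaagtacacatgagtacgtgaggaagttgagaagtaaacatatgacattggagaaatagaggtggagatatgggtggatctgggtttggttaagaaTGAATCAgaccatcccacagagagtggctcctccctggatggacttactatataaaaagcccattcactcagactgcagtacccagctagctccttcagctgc
Sprr2d: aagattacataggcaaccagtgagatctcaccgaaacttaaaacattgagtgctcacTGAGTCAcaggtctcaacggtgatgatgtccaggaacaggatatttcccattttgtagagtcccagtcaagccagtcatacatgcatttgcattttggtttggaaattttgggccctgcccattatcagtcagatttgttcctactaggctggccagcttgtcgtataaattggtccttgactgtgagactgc
Sprr2h: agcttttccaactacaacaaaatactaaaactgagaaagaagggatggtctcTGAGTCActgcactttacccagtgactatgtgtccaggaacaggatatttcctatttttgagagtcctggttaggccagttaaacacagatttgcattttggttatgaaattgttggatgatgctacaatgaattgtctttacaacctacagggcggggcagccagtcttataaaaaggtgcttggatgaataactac
Sprr1b: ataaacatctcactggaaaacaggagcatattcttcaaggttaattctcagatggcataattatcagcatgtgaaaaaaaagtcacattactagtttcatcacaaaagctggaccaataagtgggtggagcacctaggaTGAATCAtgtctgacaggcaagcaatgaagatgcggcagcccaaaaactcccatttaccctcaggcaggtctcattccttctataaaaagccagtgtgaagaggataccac
Lce3c: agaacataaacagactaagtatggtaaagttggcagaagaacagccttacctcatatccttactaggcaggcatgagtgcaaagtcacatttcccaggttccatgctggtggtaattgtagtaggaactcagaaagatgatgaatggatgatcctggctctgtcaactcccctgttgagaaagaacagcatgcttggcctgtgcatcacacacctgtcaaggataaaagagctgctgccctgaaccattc
Of the 45 members, 43 had a promoter entry, and TGANTCA was found on either strand in 16 of them (37.2%), against 2113 of 27025 genes (7.82%). It was present in 7 of 10 Sprr2 genes, in both Sprr1 genes and in 3 of the 4 genes Lor, Flg, Flg2 and Hrnr, and in none of the 6 Lce3 or 13 Lce1 genes. The letters were thus found in families that rose and in genes that fell after imiquimod. TTCNNNGAA, the letters of STAT sites, occurred in 4.65% of the members against 8.13% of all genes, TTGCNNAA in 11.6% against 10.8%, and GGGTGNG, a KLF box, in 14.0% against 30.0%. TTGCNNAA was in 3 of the 4 genes Lor, Flg, Flg2 and Hrnr, in 1 of 10 Sprr2 genes, in 1 of 6 Lce3 genes and in 0 of the Sprr1 and Lce1 genes. A match is a run of letters and not a bound site.

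Imiquimod was followed by a wide exchange of cornified envelope transcripts in keratinocytes as a whole. Most Sprr2 genes went from at most 7.33 CPM to far higher levels, while Lor, Flg, Flg2 and Hrnr fell. Of the 45 members, 30 passed the filter on low counts, and 18 were higher and 5 lower in IMQ than in Sham by edgeR's quasi-likelihood test at an adjusted p under 0.05. Over all 14016 genes tested, 8.28% were higher and 10.8% lower. The median log2 fold change of the tested members was 4.29, or 3.77 with genes at 0 UMIs in a group set to their bound, against -0.06 over all genes. The summed level of the 45 members was 978 and 721 CPM in Sham, 5270 and 4371 in IMQ, with 6101 and 7245 in IMQ+SHP099.

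**Figure D1:**
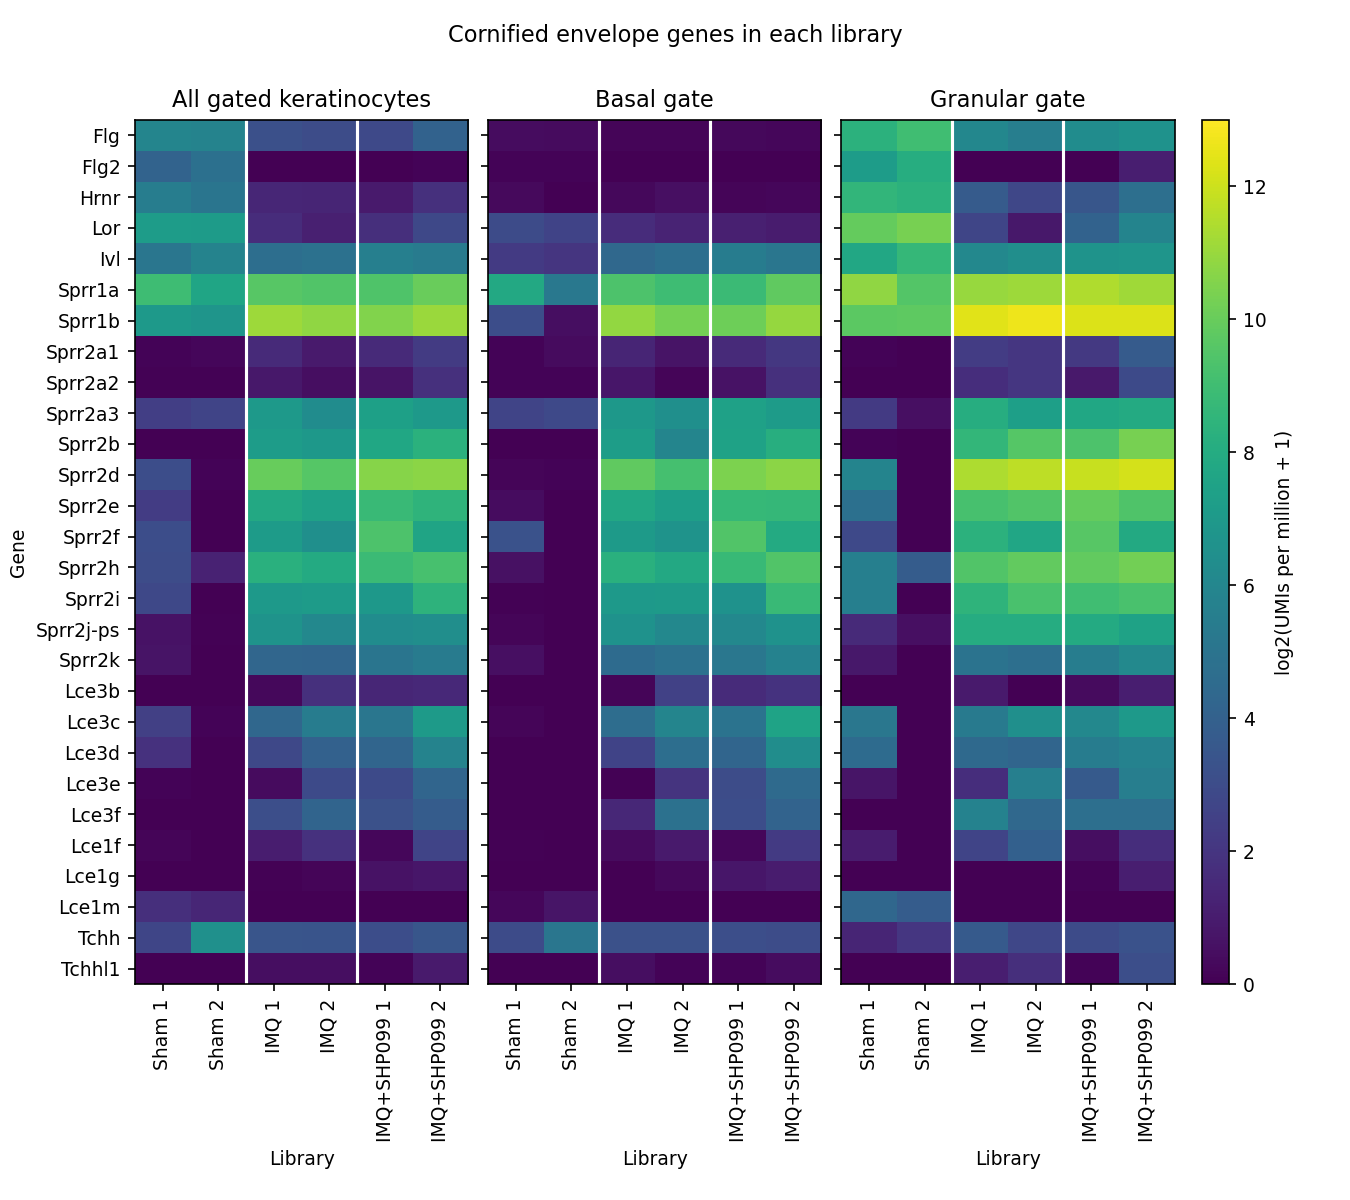
Level of the 28 members that were called or reached 50 CPM in a group mean (rows) in each library (columns), as log2(CPM + 1), in all gated keratinocytes, the basal gate and the granular gate. Lor, Flg, Flg2 and Hrnr are brightest in the Sham granular gate. The Sprr2 rows, apart from the low Sprr2a1 and Sprr2a2, are brighter in the 4 treated libraries than in Sham in all 3 panels.

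Loricrin (Lor), the most abundant protein of the normal mouse envelope, fell steeply. Its granular level was 986 and 1290 CPM in Sham, 5.5 and 0.782 in IMQ, with 16.3 and 57.5 in IMQ+SHP099. Both Sham libraries lay far above all 4 treated ones. The log2 fold change of IMQ against Sham was -7.95 (SE 0.74, edgeR adjusted p = 7.02e-05), and in all gated keratinocytes, where Lor measured 145 and 138 CPM in Sham and 2.14 and 1.22 in IMQ, it was -6.15 (SE 0.48, adjusted p = 0.000136). Single cells carried much of the Lor signal: 51.3% of the granular Lor UMIs of Sham replicate 2 lay in 1 cell, and without that cell the library still held 634 CPM.

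The filaggrin family, large repeat proteins that aggregate keratin and are later broken down to hydrating amino acids, fell with it. Flg measured 331 and 509 CPM in the Sham granular gate, 63.7 and 46.9 in IMQ, with 80.2 and 96.2 in IMQ+SHP099, a log2 fold change of -2.55 (SE 0.32, adjusted p = 0.000416) for IMQ against Sham. Hrnr (hornerin) measured 373 and 328 in Sham, 12.1 and 5.86 in IMQ, with 10 and 25.4 in IMQ+SHP099, with a log2 fold change of -4.88 (SE 0.45, adjusted p = 7.02e-05). Flg2 measured 142 and 270 in Sham and was not counted once in the IMQ granular gate, which puts it at least 435-fold lower with a floor of 3 UMIs over the group. Sham did not overlap with either treated group for any of these genes, and they and Lor were called lower in the granular gate and in all gated keratinocytes. The size for Flg depended on how the gate was drawn. When the late genes Asprv1 and Cnfn were left out of it, which left 30 and 18 cells in the IMQ libraries, the log2 fold change of Flg was -0.40 (adjusted p = 0.649), while that of Hrnr was -2.85 (adjusted p = 0.00295) and that of Lor -5.96 (adjusted p = 0.000219).

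Involucrin (Ivl), an early scaffold onto which the envelope is built, moved in opposite directions in the gates. Granular Ivl measured 221 and 410 CPM in Sham, 65.9 and 84.1 in IMQ, with 102 and 111 in IMQ+SHP099, with a log2 fold change of -1.69 (SE 0.34, adjusted p = 0.0067). That call was lost without IMQ replicate 1 (adjusted p = 0.116) and in the gate without Asprv1 and Cnfn (log2 fold change -0.52, adjusted p = 0.425). In the basal gate Ivl measured 3.64 and 3.06 in Sham and 20.2 and 25.1 in IMQ, a rise of 2.86 (SE 0.34, adjusted p = 0.000516) on the log2 scale. Over all gated keratinocytes it measured 33.3 and 55 in Sham and 25.2 and 28.2 in IMQ, with an adjusted p of 0.245.

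**Figure D2:**
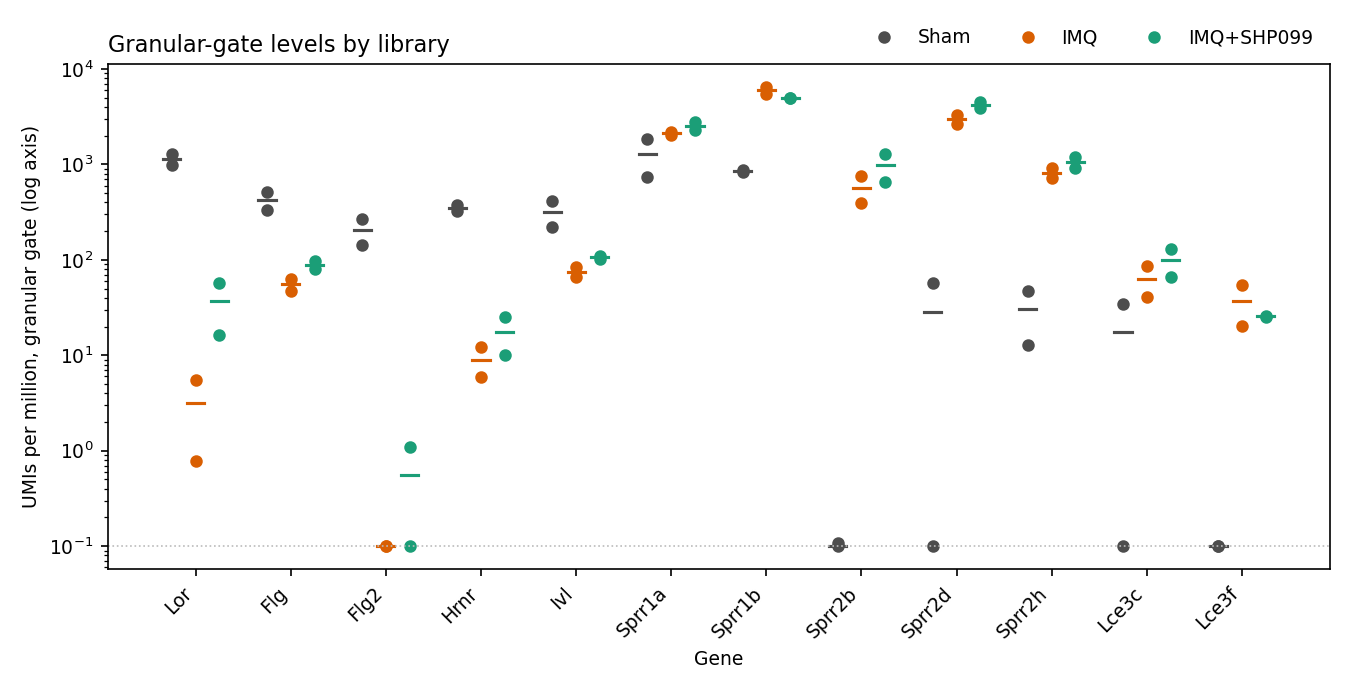
Granular-gate level of 12 members in each library (points, CPM on a log axis, group means as bars), with values at or below 0.1 drawn on the dotted line. Lor, Flg, Flg2, Hrnr and Ivl lie highest in Sham, and Sprr1b and the Sprr2 genes lie highest in the treated groups.

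The Sprr1 pair, crosslinking proteins rich in proline, split. Sprr1b measured 834 and 881 CPM in the Sham granular gate, 5482 and 6469 in IMQ, with 5020 and 5014 in IMQ+SHP099. It rose by 3.16 on the log2 scale (SE 0.39, adjusted p = 0.000366), and by 4.27 (SE 0.41, adjusted p = 0.000311) in all gated keratinocytes. Sprr1a, already abundant in Sham, measured 1850 and 740, then 2053 and 2210, then 2784 and 2297, and its log2 fold change of 1.04 (SE 0.49, 95% interval -0.05 to 2.12) did not pass the test (adjusted p = 0.176). Sham replicate 1 set that outcome: without it the value was 1.99 (adjusted p = 0.0326).

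The Sprr2 genes, a cluster of near copies between Lor and the Sprr1 genes, rose together. All 11 were tested and called higher in the granular gate and in all gated keratinocytes, where 8.77% and 8.28% of all genes were called higher. Sprr2d was the most abundant, at 57.1 and 0 CPM in the Sham granular gate, 2666 and 3299 in IMQ, with 3888 and 4533 in IMQ+SHP099, a log2 fold change of 6.90 (SE 1.28, adjusted p = 0.00416). Sprr2h followed with 47.8 and 12.8 in Sham, 716 and 925 in IMQ, with 928 and 1192 in IMQ+SHP099, a log2 fold change of 5.01 (SE 0.61, adjusted p = 0.000325). In the granular gate both Sham libraries lay below every treated library for each gene of the cluster, and Sham replicate 2 lay at or below Sham replicate 1. Here and elsewhere, the share of all genes whose libraries separate in this way is not given, so such a separation is a description only.

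Sprr2b was close to absent in Sham, with 0.108 and 0 CPM against 393 and 750 in IMQ, with 658 and 1302 in IMQ+SHP099. Its Sham value rests on 1 UMI, so the ratio of IMQ to Sham was 5817 with a 95% counting interval from 1043 to 229801. Sprr2e measured 26.4 and 0 in Sham, 585 and 721 in IMQ, with 966 and 675 in IMQ+SHP099 (log2 fold change 5.74, SE 1.05, adjusted p = 0.00381). Sprr2f measured 6.39 and 0, then 330 and 204, then 796 and 238 (6.28, SE 0.96, adjusted p = 0.00129), so its IMQ+SHP099 libraries were apart from each other. Sprr2i measured 47.2 and 0, then 356 and 611, then 512 and 626 (4.53, SE 1.09, adjusted p = 0.0163). Sprr2j-ps is a pseudogene by its name, but the annotation types it as protein-coding. It measured 1.95 and 0.458, then 262 and 263, then 245 and 176 (7.69, SE 0.56, adjusted p = 2e-05). All 4 treated libraries lay above both Sham libraries for each of these genes.

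Sprr2a1, Sprr2a2 and Sprr2a3 cannot be separated with confidence. Within the last 400 bases of their transcripts, all windows of 90 bases of Sprr2a1 and Sprr2a2 and 50.2% of those of Sprr2a3 are shared among the 3, and the annotated spans of Sprr2a1 and Sprr2a2 overlap. Sprr2a3 measured 3.68 and 0.458 CPM in the Sham granular gate, 273 and 162 in IMQ, with 215 and 244 in IMQ+SHP099, a log2 fold change of 6.63 (SE 0.59, adjusted p = 5.53e-05). Sprr2a1 and Sprr2a2 reached at most 12.2 CPM there, and their granular calls were lost without Sham replicate 1 (adjusted p = 0.0586 and 0.194). That of Sprr2a2 was also lost without IMQ replicate 1 (adjusted p = 0.10) or IMQ replicate 2 (0.0655). Sprr2k, the remaining gene, reached at most 67.5 CPM and rose by 5.83 (SE 0.50, adjusted p = 4.78e-05) on the log2 scale.

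The LCE genes, small cysteine- and glycine-rich proteins added late to the envelope, did not move as a block. Lce1m fell: it measured 19.1 and 12.8 CPM in the Sham granular gate and was at 0 in all 4 treated libraries, at least 46.7-fold lower in IMQ. Of the 14 Lce1 genes only Lce1f and Lce1m had enough counts to be tested there, and Lce1a1, Lce1b and Lce1c had at most 3 UMIs per group in the granular gate. Lce6a, with 2.6 and 1.37 CPM in Sham, was at 0 in the treated granular gate, at least 6.18-fold lower in IMQ, without a test. Lce1f rose there by 4.06 (SE 0.91, adjusted p = 0.0112), a call lost without IMQ replicate 2 (adjusted p = 0.127).

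Lce3 genes, known for their induction after barrier injury, were low in Sham. Lce3c measured 4.58 and 0.0897 CPM in Sham keratinocytes, 19.6 and 42.8 in IMQ, with 33.1 and 135 in IMQ+SHP099, a rise of 3.66 (SE 1.08, adjusted p = 0.0451) that was lost without Sham replicate 2 (adjusted p = 0.0686). Granular Lce3c measured 34.9 and 0 in Sham and 40.4 and 86.8 in IMQ, with no call (adjusted p = 0.175) until Sham replicate 1 was left out (adjusted p = 0.00084). Lce3f measured 0 and 0 in the Sham granular gate and 54.2 and 20.3 in IMQ, at least 164-fold higher. Lce3d measured 22.2 and 0 against 21 and 18, with no call (adjusted p = 0.505). In the granular gate Sham replicate 1 thus held Lce3c and Lce3d, which were not counted in the 67 cells of Sham replicate 2. Lce3 genes also share sequence, up to 36.7% of the windows of Lce3c, so single members are uncertain.

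Trichohyalin (Tchh), a protein of the inner root sheath of the hair, behaved unlike the rest. In all gated keratinocytes it measured 5.58 and 91.4 CPM in Sham, 9.64 and 9.24 in IMQ, with 7.37 and 10.2 in IMQ+SHP099. The high value was Sham replicate 2, the library that also held the inner root sheath keratins Krt25 at 88.3 and Krt71 at 95.1, against at most 0.428 elsewhere. Krt27, of the same list, was less confined. In the transitional gate Krt27 measured 0.399 and 28.8 in Sham, 2.79 and 2.53 in IMQ, with 0.268 and 2.49 in IMQ+SHP099. Krt73 measured 0 and 43.2 there in Sham, 1.48 and 0 in IMQ, with 0 and 0 in IMQ+SHP099. The log2 fold change of Tchh was -1.96 (SE 0.84, adjusted p = 0.137), -2.84 (adjusted p = 0.00252) without Sham replicate 1 and 0.78 without Sham replicate 2. Granular Tchh measured 1.52 and 3.21 in Sham and 11.7 and 5.86 in IMQ, a call (2.44, SE 0.53, adjusted p = 0.01) lost without Sham replicate 1 (adjusted p = 0.101) or IMQ replicate 1 (adjusted p = 0.189). Repetin (Rptn) measured 10.8 and 34.4 in Sham and 21.4 and 10.2 in IMQ, with a log2 fold change of -0.00 (95% interval -1.42 to 1.42), and Crnn, Sprr3 and Sprr4 had at most 1 UMI per group in this gate.

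Of the members, 27 were tested in the granular gate, and 16 were higher and 6 lower in IMQ than in Sham, against 8.77% and 9.23% of all 9898 genes tested there. The median log2 fold change of the tested members was 4.48, or 4.06 with bounds, against -0.00 over all genes. DESeq2 called 15 higher and 6 lower. The exchange is plain in the make-up of the transcripts. Lor, Flg, Flg2 and Hrnr made up 36.5% and 53.3% of the member UMIs of the Sham granular gate, 0.604% and 0.335% in IMQ, with 0.648% and 1.06% in IMQ+SHP099. Sprr2 genes made up 3.81% and 0.306% in Sham, 41.7% and 43.5% in IMQ, with 50.2% and 53.3% in IMQ+SHP099. The Sprr1 pair held 53.4% and 36.1% in Sham, 56.0% and 54.2% in IMQ, with 47.5% and 42.9% in IMQ+SHP099. Their sum over the 45 genes was 5022 and 4495 CPM in Sham, 13458 and 16002 in IMQ, with 16444 and 17035 in IMQ+SHP099. These are 3′ tag counts, in which each molecule is tagged at its end, so they need no scaling by length.

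**Figure D3:**
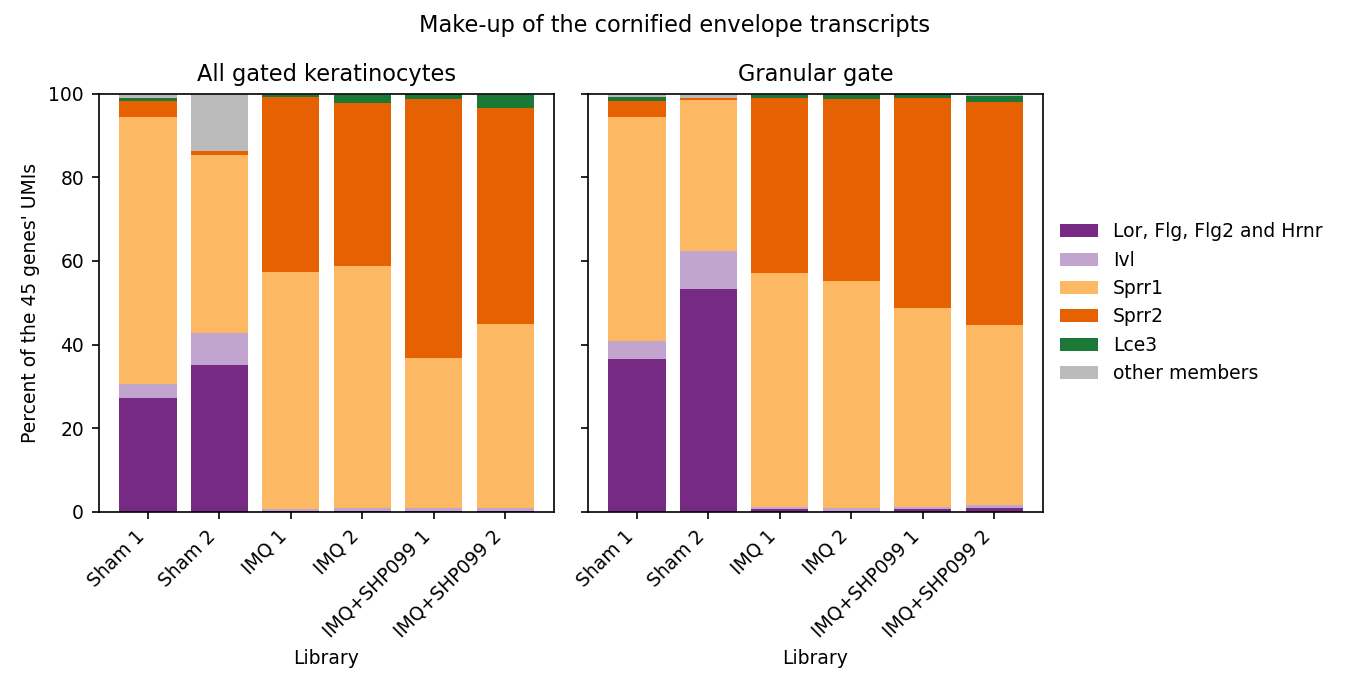
Percent of the 45 genes' UMIs held by each family (stacked bars from 0 to 100) in each library, in all gated keratinocytes and in the granular gate. The Lor, Flg, Flg2 and Hrnr segment takes 36.5% and 53.3% of the Sham granular bars and at most 1.06% of the treated ones, where Sprr2 takes 41.7% to 53.3%.

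Shares of cells with a UMI were compared at equal depth. After each cell was thinned to 2000 UMIs, at least 1 Lor UMI was found in 11.6% (exact 95% interval 8.79 to 14.9) and 7.81% (2.59 to 17.3) of Sham granular cells. In IMQ replicate 1 it was found in 0 of 156 cells, which allows up to 2.34% by the same exact interval, and in IMQ replicate 2 in 0 of 66, which allows up to 5.44%. These limits are for cells with a UMI at this depth, not for cells that express Lor. Sprr2d was found in 4.24% and 0% of Sham granular cells, 92.9% and 86.4% of IMQ cells, and 91.7% and 87.2% of IMQ+SHP099 cells. Before thinning, Lor was found in 23.7% and 32.8% of the Sham cells, 5% and 2.99% of the IMQ cells and 3.33% and 5.88% of the IMQ+SHP099 cells. Unthinned Sprr2d was found in 8.77% and 0% of the Sham cells, 98.8% and 94.0% of the IMQ cells and 94.6% and 94.1% of the IMQ+SHP099 cells. Fibroblasts, which should lack these genes, gave Sprr2d in 0% and 0% of Sham cells, 1.02% and 0.426% of IMQ cells and 5.38% and 1.36% of IMQ+SHP099 cells thinned in the same way. Their thinned Lor shares were 0.410% and 0.661% in Sham, 0.0282% and 0.0790% in IMQ, with 0% and 0.115% in IMQ+SHP099. Median depths were 18836 to 39745 UMIs in granular and 5301 to 9594 in fibroblast gates, and cells under 2000 UMIs, at most 15 per granular gate, were left out. All these intervals cover counting error only.

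The basal gate showed the same families in cells with few suprabasal keratins. Of 24 members tested, 17 were higher and 1 (Lor) lower in IMQ than in Sham, against 10.3% and 11.8% of all 13113 genes. The median log2 fold change was 7.37, or 4.82 with bounds, against -0.07 over all genes. Sprr2d measured 0.124 and 0.0956 CPM in Sham, 899 and 573 in IMQ, with 1401 and 1723 in IMQ+SHP099 (log2 fold change 12.64, SE 0.65, adjusted p = 2.09e-05 for IMQ against Sham). Sprr1b measured 7.53 and 0.382, then 1915 and 1225, then 1111 and 1989 (8.52, SE 1.19, adjusted p = 0.00123). Neither gene overlapped between Sham and the treated groups. The fall of Lor in this gate (-1.56, adjusted p = 0.0394) was lost without Sham replicate 1 (0.176), IMQ replicate 1 (0.117) or IMQ replicate 2 (0.240). Calls were also lost for Sprr2a1 without Sham replicate 1 (0.10) or IMQ replicate 1 (0.306) and for Lce3b without Sham replicate 1 (0.106) or IMQ replicate 2 (0.117). Lce3e was lost without Sham replicate 1 (0.197), Sham replicate 2 (0.0715) or IMQ replicate 2 (0.349), and Sprr1a was gained without Sham replicate 1 (4.48, adjusted p = 0.00104).

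Basal-gate cells of treated skin were unlike those of Sham in the hemidesmosome genes Itga6, Itgb4, Col17a1 and Dst, which anchor true basal cells to the basement membrane. Their median sum per 10000 UMIs was 29.1 and 42.0 in Sham, 5.08 and 5.89 in IMQ, with 8.99 and 6.67 in IMQ+SHP099. Late genes reached 10 per 10000 in 0.195% and 0.143% of Sham basal-gate cells and in 5.19% to 13.1% of those of the treated libraries. A stricter basal gate, chosen after these values were seen, kept cells with a hemidesmosome sum of at least 10 and a late sum under 2. It held 3356 and 648 cells in Sham, 227 and 135 in IMQ, with 1811 and 83 in IMQ+SHP099. Its median hemidesmosome sum was still unequal, at 29.6 and 42.7 in Sham, 15.3 and 14.6 in IMQ, with 15.9 and 16.8 in IMQ+SHP099. By edgeR, Dst (log2 fold change -1.59) and Col17a1 (-1.36) were lower there in IMQ than in Sham. Itga6 and Itgb4 were not called.

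Within the stricter basal gate fewer members had enough counts, and the level of most was lower in IMQ than in the wider gate. Of 15 members tested, 10 were higher and 1 lower, against 8.03% and 8.86% of all 12003 genes. Sprr2d measured 0.13 and 0.101 CPM in Sham, 102 and 22.9 in IMQ, with 588 and 131 in IMQ+SHP099, a log2 fold change of 8.90 (SE 1.17, adjusted p = 0.00103). Sprr2a3 was not lower than in the wider gate, with 5.33 and 6.48 in Sham, 179 and 96.5 in IMQ, with 191 and 160 in IMQ+SHP099, against 119 and 88.1 for IMQ in the wider gate. Sprr1a turned direction, with 222 and 37.7 in Sham and 58 and 4.75 in IMQ, though without a call (adjusted p = 0.205). Lce3c, at 24.2 and 59.3 CPM in the IMQ wider gate, was at 0 and 0.264 in the stricter one. Ivl measured 2.88 and 2.73 in Sham and 21.3 and 6.59 in IMQ and rose (2.40, SE 0.61, adjusted p = 0.0241). Sprr2d, Sprr2h and Sprr1b were thus counted in the stricter gate of IMQ skin too, at lower levels than in the wider gate, while Lce3c was close to 0 there. Cells of this gate held fewer hemidesmosome UMIs in IMQ than in Sham, so the groups are not matched for it.

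**Figure D4:**
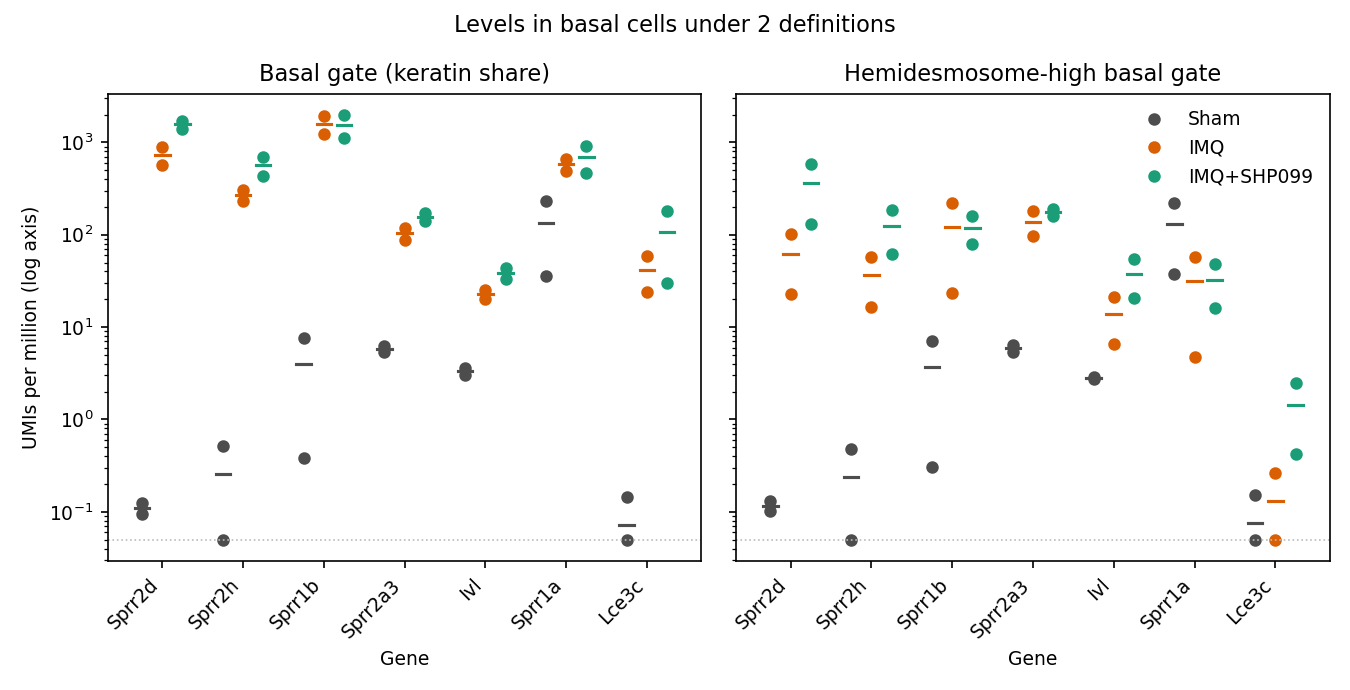
Levels of 7 members in each library (points, CPM on a log axis, group means as bars) in the basal gate and in the hemidesmosome-high basal gate, with values at or below 0.05 drawn on the dotted line. Sprr2a3 stays near its level in both panels. Lce3c and Sprr1a of the treated libraries drop in the second, and Sprr2d, Sprr2h and Sprr1b of the IMQ libraries are lower there too.

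Fibroblasts of the same libraries give the level of stray RNA. Their share of cells with Sprr2d, up to 5.38% after thinning, was highest in IMQ+SHP099 replicate 1, and the part of stray RNA in the low basal values was not tested.

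The difference between gates was tested directly, with each library as a block. Of 30 members, 14 differed between the granular and the basal gate in their IMQ response (3 more positive and 11 more negative in the granular gate), against 13.5% of all genes. Lor fell more in the granular gate (difference of log2 fold changes -6.55, adjusted p = 1.53e-06), and Ivl differed by -4.55 (adjusted p = 6.25e-07). On the log2 scale Sprr2d (-6.22) and Sprr1b (-5.91) rose less there than in the basal gate, and Sprr2a3 (2.20) rose more. The Sham basal gate held 7 UMIs of Sprr2d and 368 of Sprr1b. In CPM, the IMQ levels of Sprr2d and Sprr1b given above were higher in the granular gate than in the basal gate. Flg2, Lce1m, Lce3b, Lce3f and Tchhl1 had no usable standard error because whole groups were at 0. Without Sham replicate 1 the number of members was 8, and with the stricter basal gate 7, both given without a share over all genes.

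Adding SHP099 moved no member past the test. In all gated keratinocytes 0 of the 30 tested members and 0.0% of all genes were called for IMQ+SHP099 against IMQ by edgeR, while 4 members and 437 of 14016 genes had an unadjusted p under 0.05 and DESeq2 called 25 genes, none of them a member. The basal gate gave 0 calls (0.0% of all genes), with 10 of 24 members and 452 of 13113 genes at an unadjusted p under 0.05 and 19 genes, none a member, by DESeq2. The granular gate gave 0 calls (0.0%), with 3 of 27 members and 207 of 9898 genes at an unadjusted p under 0.05 and 10 genes, none a member, by DESeq2. The median of the tested members was 1.00 on the log2 scale in all gated keratinocytes, 1.18 in the basal gate and 0.36 in the granular gate, against 0.04, 0.01 and 0.02 over all genes. Both comparisons share the IMQ libraries, so their values are set side by side only.

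The intervals of the second comparison differed widely in width. In the granular gate the log2 fold change of Sprr1b was -0.25 (95% interval -1.05 to 0.55), that of Sprr1a 0.27 (-0.80 to 1.34) and that of Sprr2h 0.35 (-0.79 to 1.49). That of Sprr2d was 0.48 (-1.71 to 2.68), so a rise or fall of several-fold could not be told from none. For Flg it was 0.66 (-0.03 to 1.36), and for Lce3c 0.56 (-1.44 to 2.56). In the basal gate Sprr2d had 1.18 (0.34 to 2.02), Sprr2e 1.23 (0.21 to 2.25) and Ivl 0.91 (0.22 to 1.61), further from Sham but without a call. Lor, Lce3f and Tchh were the tested members with negative values there. In the stricter basal gate Sprr2d had 2.67 (0.94 to 4.40), also without a call. In all gated keratinocytes Sprr2b, at 143 and 120 CPM in IMQ, with 214 and 317 in IMQ+SHP099, had a log2 fold change of 1.09 (0.45 to 1.73) with an adjusted p of 1. No member passed this test in either direction. With no filter on low counts, edgeR called Lor toward its Sham level in the granular gate (3.16, adjusted p = 3.38e-07) and in all gated keratinocytes (1.28, adjusted p = 0.0281). Granular Lce1f was also called toward Sham (-3.76, adjusted p = 0.00132). The other members called without the filter, Sprr2b, Sprr2f, Sprr2k, Lce3c, Lce3d, Lce3e and Rptn, were higher than in IMQ.

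Among members with a group mean of at least 50 CPM in keratinocytes, Lor had the largest granular value in this comparison, and it rested on single cells. Its log2 fold change in the granular gate was 3.16 (95% interval 1.68 to 4.64, adjusted p = 0.748). In IMQ+SHP099 replicate 1, 79.5% of the granular Lor UMIs came from 1 cell, and in replicate 2 it was 90.4%. Without those cells Lor stood at 3.34 and 5.57 CPM, beside 1.53 and 0.395 in IMQ without its own top cells. Against Sham, at 839 and 634 without top cells, all 4 treated libraries remained low. Lce1f, below 50 CPM, had a larger granular value of -3.79 (95% interval -6.04 to -1.54) without a call. It rested on 66 UMIs in IMQ and 6 in IMQ+SHP099.

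**Figure D5:**
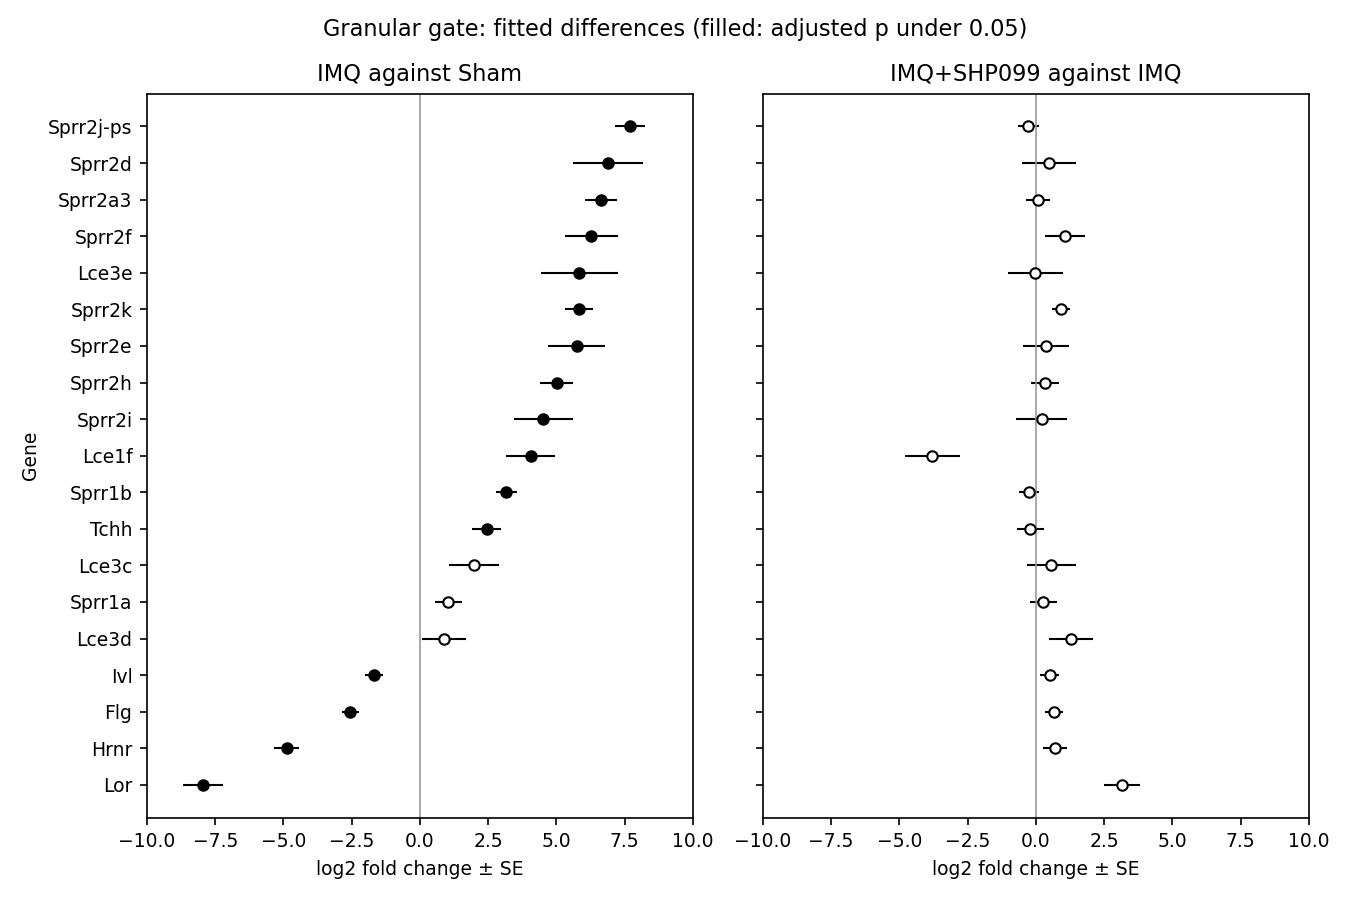
Fitted log2 fold changes with standard errors of 19 members in the granular gate, for IMQ against Sham and for IMQ+SHP099 against IMQ, filled where the edgeR adjusted p is under 0.05. In the first panel Lor lies at -7.95 and Sprr2j-ps at 7.69, and in the second no point is filled.

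Set against Sham, the IMQ+SHP099 libraries showed 19 members higher and 5 lower of 30 in all gated keratinocytes, where 9.62% and 10.2% of all genes were called. The log2 fold change was 8.89 (SE 1.44, adjusted p = 0.004) for Sprr2d and -4.90 (SE 0.46, adjusted p = 0.000307) for Lor, beside 7.89 (SE 1.38) and -6.15 (SE 0.48) for IMQ. The 2 comparisons share the Sham libraries.

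Of the 23 members called in all gated keratinocytes for IMQ against Sham, 17 stayed called without each Sham or IMQ library in turn. Those were Flg, Flg2, Hrnr, Lce1m, Lce3f, Lor, Sprr1b and all Sprr2 genes but Sprr2a2. Lce1g was lost without any of the 4 libraries (adjusted p 0.0738 to 0.182) and Lce3b without Sham replicate 1 (0.0963). Lce3e was lost without Sham replicate 1 (0.122), Sham replicate 2 (0.107) or IMQ replicate 2 (0.0692). Sprr2a2 was lost without Sham replicate 1 (0.110), Sham replicate 2 (0.0792) or IMQ replicate 1 (0.144), and Tchhl1 without the same 3 libraries (0.156, 0.0854 and 0.0656). Granular Lce3e was lost without Sham replicate 1 (0.0907) or IMQ replicate 2 (0.176), while Lce3d (0.000526) was gained without Sham replicate 1. These genes are all low, with at most 17.9 CPM in keratinocytes for the 5 that were lost here.

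The upper hair follicle, gated by Krt79, gave members in a different ratio. Lor measured 1491 and 140 CPM there in Sham, 0.565 and 0.195 in IMQ, with 2.93 and 0 in IMQ+SHP099, from 100 to 412 cells per library. Flg measured 1325 and 85.2, then 2.26 and 10.5, then 7.61 and 38.3. The Sham libraries differed widely from each other, both lay above every treated library for Lor and Flg, and no test was run on this gate.

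Other genes of the pathway were read against the 8.77% of all genes called higher and 9.23% called lower in the granular gate. Among genes of crosslinking and its control, 3 of 6 were higher in the IMQ granular gate: Tgm3 (log2 fold change 3.70) and Tgm1 (1.63), transglutaminases that crosslink the envelope, and Cstb (1.73), a cysteine protease inhibitor. Tgm1 measured 83.1 and 121 CPM in Sham, 251 and 238 in IMQ, with 266 and 374 in IMQ+SHP099. Of the envelope proteins encoded elsewhere, 4 of 10 tested were lower and none higher: Scel (-2.52), Ppl (-1.44), Sbsn (-1.35) and Evpl (-1.19). Cdhr1, of the same list, did not pass the filter on low counts in this gate. It was called higher in all gated keratinocytes (7.77). Of 6 tested genes of filaggrin processing, Casp14, a protease needed to break filaggrin down, was higher (1.57). The median over each list was 1.68, -0.90 and 0.44, beside -0.00 over all genes.

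Transcription factors of epidermal differentiation went both ways, with 4 of 24 higher and 4 lower in the granular gate, beside 8.77% and 9.23% of all genes. Prdm1 (3.22), Grhl3 (2.21), Nfe2l2 (1.61) and Fosl2 (1.11), the last an AP-1 subunit, were higher. Ahr (-1.95), Gata3 (-1.64), Rora (-1.46) and Notch1 (-1.09) were lower. The wound keratins Krt6a (8.06), Krt6b (9.04), Krt16 (4.50) and Krt17 (4.26) were all higher, and the cycling genes Mki67 and Top2a were not called. For IMQ+SHP099 against IMQ 0 genes were called in each of these lists.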

How the data were processed

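Dorsal skin of 6 libraries (2 each of Sham, IMQ and IMQ+SHP099) was profiled by droplet sequencing. The deposited files hold whole-number UMI counts for each gene in each barcode. The authors made them with Cell Ranger against mm10 (per the labels and the submitters' processing notes). Nothing was normalized before deposit. The libraries held 53913865 to 188283327 UMIs.

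Of 55201 barcodes, 50850 were kept, those below 100000 UMIs, 6500 genes and 10% mitochondrial share. No doublet caller was run. Keratinocytes were gated on summed keratin, fibroblast and leukocyte genes, then split into layers by the share of Krt1 and Krt10 and by late genes. Counts were summed per library and gate and tested with edgeR 4.0.16 (quasi-likelihood, TMM, Benjamini-Hochberg over all genes that passed the filter on low counts) in R 4.3.3, with all 3 groups sharing 1 estimate of the spread. DESeq2 1.42.0, no filter, other gates, a replicate block and leaving out each library were alternatives. The scripts (Python 3.11.15) were tested on simulated data. The suprabasal gate, with under 20 cells in some libraries, was not tested. The alternative granular gate without Asprv1 and Cnfn was tested although it held 18 cells in IMQ replicate 2 and 17 in IMQ+SHP099 replicate 2.

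Members with a group mean of at least 50 CPM in gated keratinocytes are given per library, and the others by range, count or call. Outside this rule, per-library values are also given for Ivl, Hrnr, Flg2, Tchh, Lce1m, Lce3d, Lce3f, Lce6a, Rptn, the Krt14 and Cdsn gate genes and Tgm1, chosen after their values were seen. The members, lists, motifs and gates were chosen with earlier results of these data known, and the stricter basal gate after the values were seen. Replicate numbers of the groups pair nothing but a number.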

Additional observations from a re-analysis of the deposited data

Results flagged for a closer look

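The response to imiquimod differed between the granular and the basal gate for 14 members, while 13.5% of all genes tested were called. This was an edgeR test of the difference itself (granular minus basal log2 fold change of IMQ against Sham, with each library as a block, 2 libraries per group). The difference was -6.55 for Lor, -5.64 for Hrnr and -4.55 for Ivl. Among SPRR genes it was -7.86 for Sprr2i, -6.22 for Sprr2d, -5.91 for Sprr1b, -4.87 for Sprr2h, -4.29 for Sprr2e and -1.67 for Sprr1a, and it was positive for Sprr2a3 at 2.20 and Sprr2f at 1.76. It was -10.37 for Lce3d, -7.00 for Lce3c and 2.89 for Tchh. In the Sham basal gate Lce3d had 0 UMIs, Sprr2i had 2, and Sprr2d and Lce3c had 7 each. The sizes of these differences therefore rest on values at or near the floor.

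These values depend on which cells the basal gate holds. With the hemidesmosome-high basal gate, chosen after the values were seen, the difference was still called for Lor (-6.00), Ivl (-4.01), Sprr2a3 (1.94), Sprr2f (4.04) and Tchh (2.67). Sprr1a was called with its sign turned (3.13). The calls for Sprr2d, Sprr2e, Sprr2h, Sprr2i, Sprr1b, Lce3c, Lce3d and Hrnr were lost. Without Sham replicate 1, 8 members were called, given without a share over all genes. Mature cells within the wider basal gate of treated skin move with these values, and their part was not tested.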

How the results depend on the processing

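The number of members called for IMQ against Sham ranged from 18 to 29 in all gated keratinocytes, 11 to 23 in the basal gate and 18 to 27 in the granular gate, and the number called for granular against basal response from 7 to 15. These counts are of members alone, and the shares of all genes called under the alternatives are not given. Of 101 alternative counts, 92 lay within 1.5 times the reported one. The others were 11 in the hemidesmosome-high basal gate, 8 without Sham replicate 1 and 7 with the hemidesmosome-high gate for the difference between gates, and, for IMQ+SHP099 against IMQ, 6, 5 and 4 with no filter on low counts in keratinocytes, basal and granular gates, 1 without IMQ replicate 2 in each of keratinocytes and basal gate, and 1 (Lce3d) with the replicate block in the basal gate. With the replicate block 26, 19 and 22 members were called for IMQ against Sham in the 3 gates. Replicate numbers did not pair the samples, with correlations of same-numbered deviations of 0.169, 0.322 and 0.090 in keratinocytes, 0.290, 0.335 and 0.091 in the basal gate and -0.110, 0.197 and -0.141 in the granular gate. Crossed numbers as the block gave 22 and 0 members in the granular gate.

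Signs turned as follows, and the cause was not tested. Leaving out each library in turn gave ranges that crossed 0. For IMQ against Sham, Tchh ran from -2.84 to 0.78 in keratinocytes and from -1.51 to 0.24 in the basal gate, and Lce1g from 0 to 5.98 in the basal gate. For IMQ+SHP099 against IMQ in keratinocytes, Sprr2j-ps ran from -0.23 to 0.47, Sprr1b from -0.24 to 0.13 and Flg from -0.011 to 1.04. In the granular gate Sprr2a3 ran from -0.22 to 0.46, Sprr2e from -0.15 to 0.71, Sprr2f from -0.36 to 1.72, Sprr2i from -0.16 to 0.69, Sprr2j-ps from -0.78 to 0.039 and Sprr1a from -0.089 to 0.53. Sprr1a was -2.07 for IMQ against Sham in the hemidesmosome-high basal gate. Without Asprv1 and Cnfn in the granular gate, Sprr1a was -0.15 and Lce3c -0.19 for IMQ+SHP099 against IMQ. That gate, with under 20 cells in 2 libraries, also put the suprabasal share of IMQ+SHP099 minus IMQ at 0.918 points and the granular share of IMQ minus Sham at -2.15 points. Libraries of 51 to 67 granular cells limit what low Lce genes can show.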
